A study of Macaca mulatta with 12 samples.

Results

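Among 12 hippocampal RNA-seq libraries of adult male rhesus macaques, 61 genes were far lower in 1 library, sample 6 of the alcohol group (alcohol 6), than in any of the other 11. They were chosen on their measured values. Among the 13104 genes averaging 1 CPM or more (a gene's count over the library's total count, times 1000000), a gene was taken when its log2(CPM + 0.1) in alcohol 6 lay at least 1 unit below the lowest of the other libraries. This held for 0.466% of those genes, and the full table lists 28633. Of the 61 genes, 46 could be paired with a symbol and 15 are named by their Ensembl identifier, among them ENSMMUG00000016673, which had the highest count of the set and is called the leading gene below.

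The libraries were made from total RNA of hippocampal tissue and fall into 2 groups, 7 from monkeys with chronic alcohol use and 5 from controls. The labels give species, sex, tissue and group, and no age in years, dose, duration of drinking, batch or dissection level. They number the samples without saying that each comes from a separate animal, so the p-values measure the spread between these samples. The question of the study is which signalling pathways of the hippocampus are altered by chronic alcohol use. All libraries held RNA of neurons and of hippocampal subfields: the summed CPM of 6 neuronal markers was 5322 to 7227 in the other 11 and 6420 in alcohol 6, and that of 3 dentate granule cell markers was 91.3 to 140 and 149. Among the 6, GAD1 and GAD2, of inhibitory neurons, were above all other libraries in alcohol 6. They were at 240 and 31.0 CPM there, against at most 239 and 27.8 CPM, while the rest lay inside the range. Of the 3 dentate markers, only C1QL2 was above all other libraries in alcohol 6, at 52.2 CPM against at most 38.0 CPM. CALB1 lay inside the range. PROX1, at 3.11 CPM, was below the controls at 3.99 to 6.81 CPM and inside the range of the other alcohol libraries. Total counts ran from 21104369 to 33020717, with 28305306 in alcohol 6, so that 3 counts, the floor used where a gene had 0 counts, corresponded to 0.0909 to 0.142 CPM.

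Several of the 61 genes are known for the choroid plexus, the sheet of epithelium that hangs in the brain's ventricles, secretes cerebrospinal fluid and carries folate, ions and hormones between blood and fluid. In the temporal lobe this tissue lies against the hippocampus in the inferior horn of the lateral ventricle. Others are known from neurons and developing brain regions, such as SLC17A6, a vesicular glutamate transporter of many subcortical neurons, and PVALB, a calcium-binding protein of fast-spiking neurons. In tissue RNA, fewer cells of a type and less RNA per cell cannot be told apart.

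The leading gene was nearly missing from alcohol 6. Its level there was 3.46 CPM, from 98 counts. In the controls, numbered 1 to 5, it was 1699, 1170, 1494, 1723 and 1834 CPM, and in alcohol 1 to 5 and 7 it was 1200, 3646, 1476, 4564, 1257 and 3803 CPM. Alcohol 6 was thus at 0.204% of the median of the others, or 338-fold under the lowest of them. Alcohol 2, 4 and 7 were the 3 highest libraries, separated from the next by 0.99 on the log2 scale, while the remaining 8 spanned only 0.65. These values chose the gene and are given as a description.

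**Figure D1:**
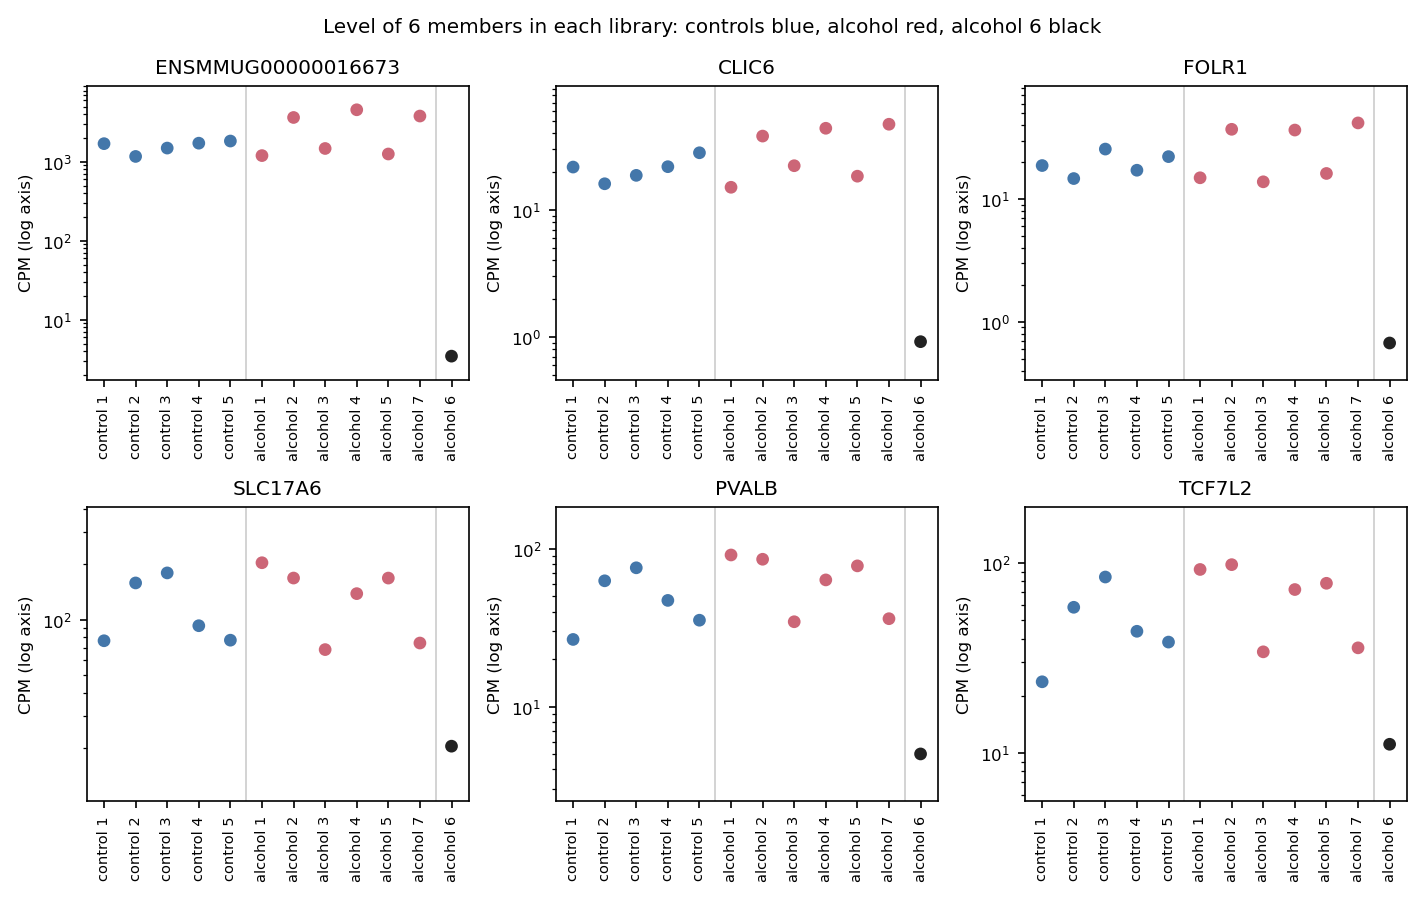
Level of 6 of the genes in each library, in CPM on a log axis, with controls in blue, alcohol in red and alcohol 6 in black. ENSMMUG00000016673, CLIC6 and FOLR1 are highest in alcohol 2, 4 and 7, whereas SLC17A6, PVALB and TCF7L2 are highest in a different set of 6 libraries.

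The next largest gaps were those of ENSMMUG00000021831, FOLR1, SLC13A4 and CLIC6. FOLR1, the folate receptor that moves folate across the choroid plexus, was at 0.671 CPM in alcohol 6. Its controls ranged from 14.7 to 25.6 CPM with a median of 18.8, and the other 6 alcohol libraries from 13.8 to 41.8 with a median of 26.4. The 3 highest libraries were alcohol 2, 4 and 7 again, and the rest overlapped with the controls. SLC13A4, a sulfate transporter, was at 1.41 CPM in alcohol 6, at 36.7 to 51.8 CPM in controls and at 26.3 to 80.9 CPM in the other alcohol libraries. CLIC6, a chloride intracellular channel family member, was at 0.919 CPM, against 16.1 to 28.2 CPM in controls and 15.1 to 47.3 CPM in the other alcohol libraries. All 3 genes were thus at 3.40% to 4.19% of their median in the other libraries, and ENSMMUG00000021831 was at 2.37%.

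Over the 61 genes, the level in alcohol 6 was 0% to 41.2% of the median of the other libraries, with a median of 15.3%. The gap to the lowest other library was 2 log2 units or more for 21 genes and between 1 and 2 for 40, with a median of 1.54. Only the leading gene (8.36) exceeded ENSMMUG00000021831 (4.73). Many of these genes had few reads in alcohol 6: 18 had 10 counts or fewer, and the median was 24 counts against 202 in the other libraries. SLCO1B3, an organic anion transporter, SHOX2, a homeobox transcription factor, and ENSMMUG00000002425 had 0 counts. Set against the floor of 3 counts in that library, they were at least 18.1-fold, 30.6-fold and 11.99-fold lower than the median of the others. Intervals and floors cover counting error only.

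The margin cut through a continuous range. SERPINA3, an acute-phase protease inhibitor (1.01), KL, the co-receptor for FGF23 that is abundant in choroid plexus (1.03), and SLITRK6, a synaptic adhesion protein (1.03), lay just inside it. SLC16A6, RBM47 and EPCIP, each at 0.99, lay just outside. Under the same rule the other 11 libraries each had 1 to 13 genes low by this margin, and 0 to 3 genes high by it, against 15 in alcohol 6. Alcohol 6 was the lowest library for 9.83% of the genes kept.

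**Figure D2:**
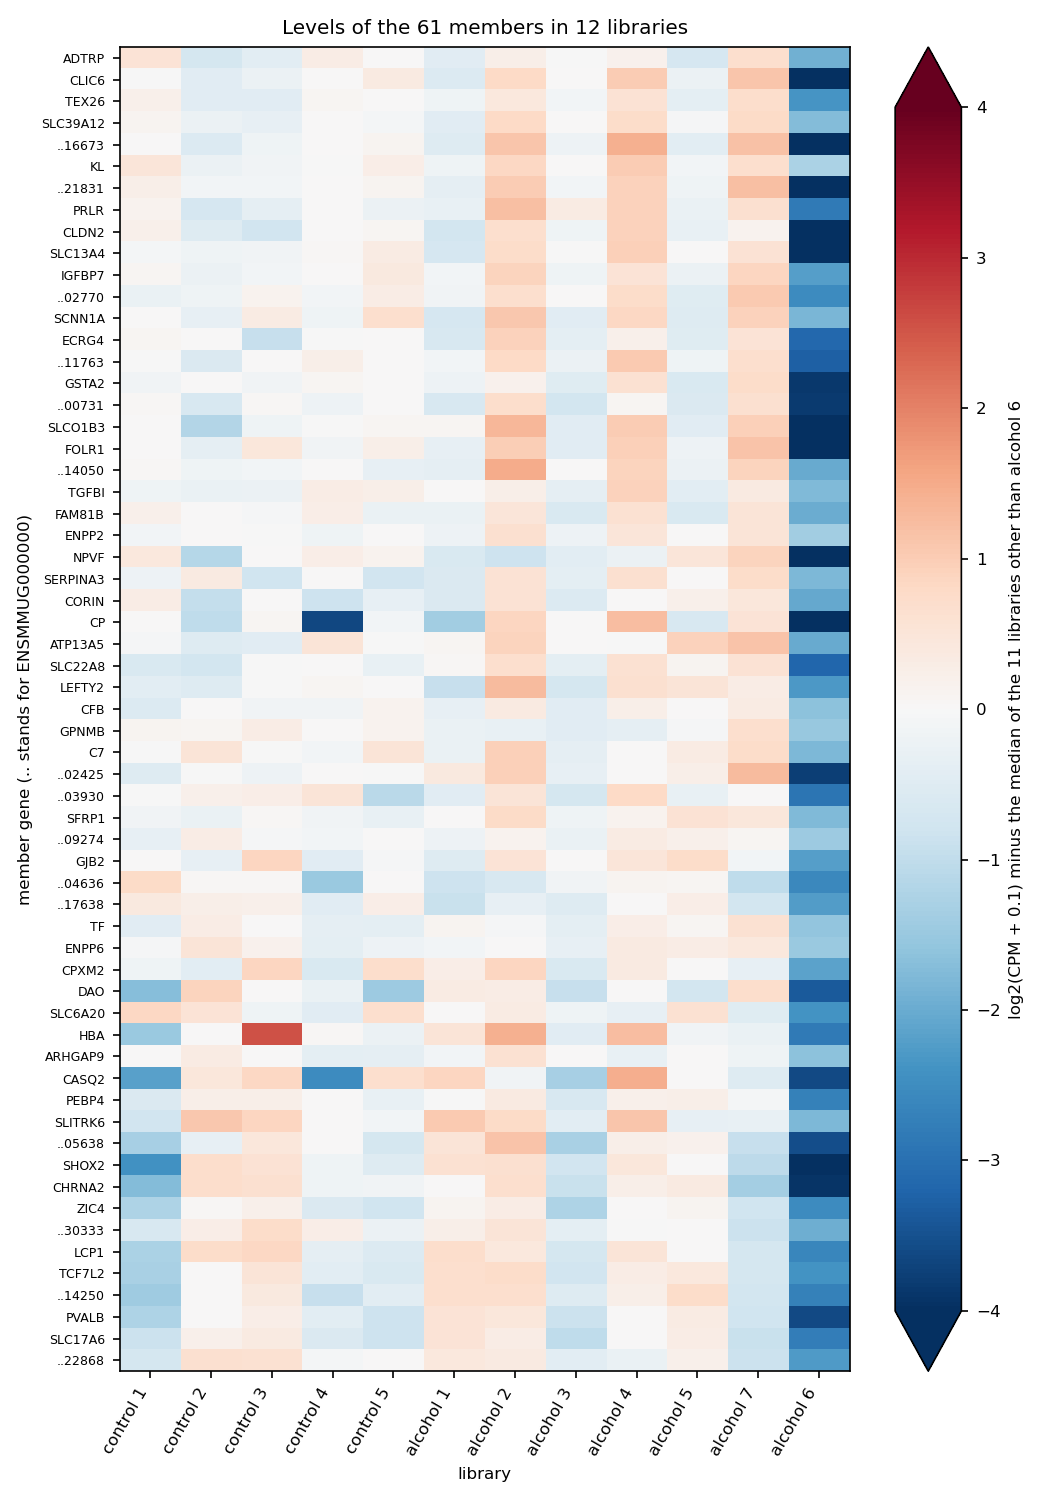
Heat map of the 61 genes (rows) in the 12 libraries (columns, alcohol 6 last), coloured by log2(CPM + 0.1) minus the median of the 11 other libraries, with the colour scale ending at 4 units on either side. Rows run from genes that vary with ENSMMUG00000016673 to genes that vary with SLC17A6, and the 2 ends are high in different libraries.

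The genes did not vary as a single set over the other 11 libraries, so the description of them as co-varying holds only in part. With the group means removed, the median Pearson correlation of log2(CPM + 0.1) over the 1830 pairs was 0.28, and 26.01% of pairs were negative. It was 0.42 among alcohol libraries only, 0.020 among controls only, and 0.074 without alcohol 2, 4 and 7. All libraries share their depth and scaling across genes, and genes are not independent replicates. Of the 59 genes other than the leading gene and SLC17A6, 35 correlated more with the leading gene and 24 more with SLC17A6, a comparison gene chosen after its values were seen. Pairs within the first set had a median correlation of 0.62, pairs within the second 0.47 and pairs across them 0.017. Without alcohol 2, 4 and 7 these became 0.14, 0.58 and -0.14. The sets were made from these same correlations, so higher values within than across them follow from the choice. The libraries left out are the highest for the leading gene, and those highest for SLC17A6 were not left out as a group.

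**Figure D3:**
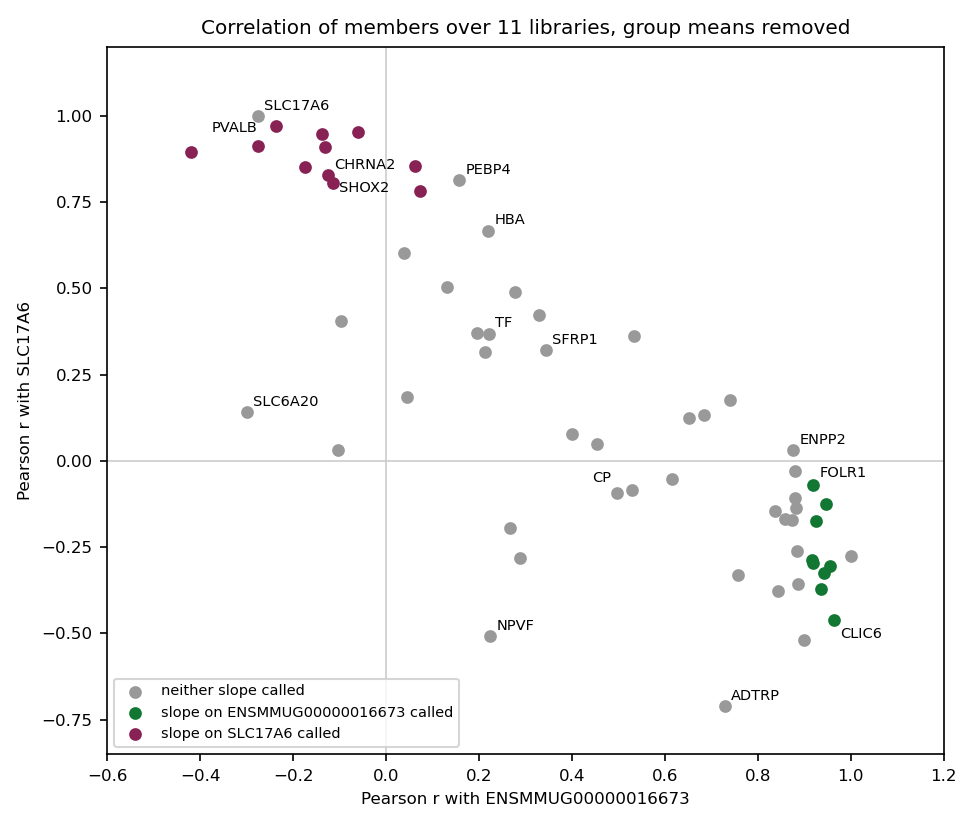
Pearson correlation of each of the 61 genes with ENSMMUG00000016673 (x axis) and with SLC17A6 (y axis) over the 11 libraries other than alcohol 6, group means removed, with genes called for a slope on the first in green and on the second in purple. The green genes lie at the right and the purple genes at the top, and no gene is called for both.

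A slope on the leading gene was tested for every gene over the 11 libraries, with group as a term in an edgeR quasi-likelihood fit and Benjamini-Hochberg adjustment over 14378 genes. A positive slope passed an adjusted p of 0.05 for 9 of the 60 other genes of the set, against 0.0835% of all genes, and no gene of the table had a negative slope that passed. The slope is the log2 change per log2 unit of the leading gene. CLIC6 had a slope of 0.76 (SE 0.07, adjusted p = 0.000380), ENSMMUG00000021831 of 0.74 (SE 0.08, adjusted p = 0.000956) and FOLR1 of 0.81 (SE 0.11, adjusted p = 0.00534). SCNN1A, a subunit of the epithelial sodium channel, had the steepest, 0.94 (SE 0.14, adjusted p = 0.00984). KL, SLC13A4, ENSMMUG00000011763, SLC39A12, a zinc transporter, and IGFBP7, a secreted binding protein of growth factors, passed with slopes of 0.55 to 0.65.

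Slopes were positive for 47 of the 60 genes, with a median of 0.29 against -0.01 over all genes tested. An unadjusted p under 0.05 was reached by 28 genes of the set, all with a positive slope, against 6.99% of all genes in either direction. In the 8 libraries without alcohol 2, 4 and 7, where the leading gene spans a narrower range, edgeR called 0 genes of the set and 0 of 14609 in all. At an unadjusted p under 0.05, 6 genes of the set had a positive slope, against 2.83% of all genes, and 14 a negative one, against 4.50%. The 9 genes called over 11 libraries kept positive slopes in the 8, of 0.39 to 1.10, while their SEs were 0.07 to 0.14 over the 11 libraries and 0.28 to 0.63 over the 8. CLIC6 had a slope of 1.10 (SE 0.32), KL of 0.88 (SE 0.35), IGFBP7 of 0.55 (SE 0.28) and ENSMMUG00000021831, the lowest, of 0.39 (SE 0.32). An unadjusted p under 0.05 was reached by 3 of the 9. Over the set the median slope became -0.15.

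Only 3 other genes passed for a slope on the leading gene. HTR2C, the serotonin 2C receptor, had a slope of 0.66 (SE 0.06, adjusted p = 0.000380), EFEMP1, a matrix glycoprotein, of 0.52 (SE 0.06, adjusted p = 0.000956) and ENSMMUG00000008782 of 0.52 (SE 0.08, adjusted p = 0.0231). Their levels in alcohol 6 were near those of the other libraries. HTR2C was at 56.0 CPM there, above its lowest other library at 34.9, and EFEMP1 at 45.8 CPM, above 37.9, while ENSMMUG00000008782 at 6.36 CPM lay under its lowest, 7.53. Alcohol 6 was thus the lowest of all 12 libraries for 1 of the 3, with 10.3% of the genes tested lowest there on CPM with TMM scaling. The 9 called genes of the set are lowest in alcohol 6 by the rule.

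The genes outside the set most like the leading gene over the 11 libraries were HTR2C (r = 0.97), EFEMP1 (0.97), ENSMMUG00000008782 (0.94), PARP16 (0.93) and TM9SF1 (0.91), by Pearson correlation with group means removed. Since the leading gene's values fall in 2 clusters of libraries, the correlations are also given over the 8 lower libraries, where they were 0.59, 0.79, 0.55, 0.80 and 0.40. PARP16 and TM9SF1 changed little in level with the leading gene. Their edgeR slopes over the 11 libraries were 0.13 (SE 0.07, adjusted p = 0.764) and 0.14 (SE 0.06, adjusted p = 0.679). Within the set, ENSMMUG00000022868, SLC6A20, a proline transporter, and ENSMMUG00000014250 had the lowest correlations with the leading gene, at -0.42, -0.30 and -0.28.

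Of 28 choroid plexus epithelium markers, 20 were matched and 16 reached a mean of 1 CPM. The set holds 7 of them: FOLR1, KL, CLIC6, SLC13A4, PRLR, the prolactin receptor, ENPP2, which makes lysophosphatidic acid, and CLDN2, a claudin of leaky epithelia. Alcohol 6 was the lowest library for 12 of the 16 and not for the other 4, against 9.83% of all genes kept. The rule fixes this for the 7 in the set. KRT18, SOSTDC1, WFDC2, SLC4A2 and TRPM3, outside the set, were lowest there by only 0.16 to 0.49 log2 units. CA12, a carbonic anhydrase, was at 37.1 CPM in alcohol 6, above all the other libraries, and ATP1B1, a sodium pump subunit, was at 995 CPM, inside their range. The summed level of the list was 1246 CPM in alcohol 6, 1481 to 1829 CPM in the other alcohol libraries and 1529 to 1714 CPM in controls. ATP1B1 alone made up most of each sum. CLDN2, at 0.0707 CPM from 2 counts, was the matched marker closest to 0 in alcohol 6. Of the 19 markers tested for a slope on the leading gene, 5 rose with it, namely CLIC6, FOLR1, KL, SLC13A4 and HTR2C, and the median slope of the list was 0.47.

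**Figure D4:**
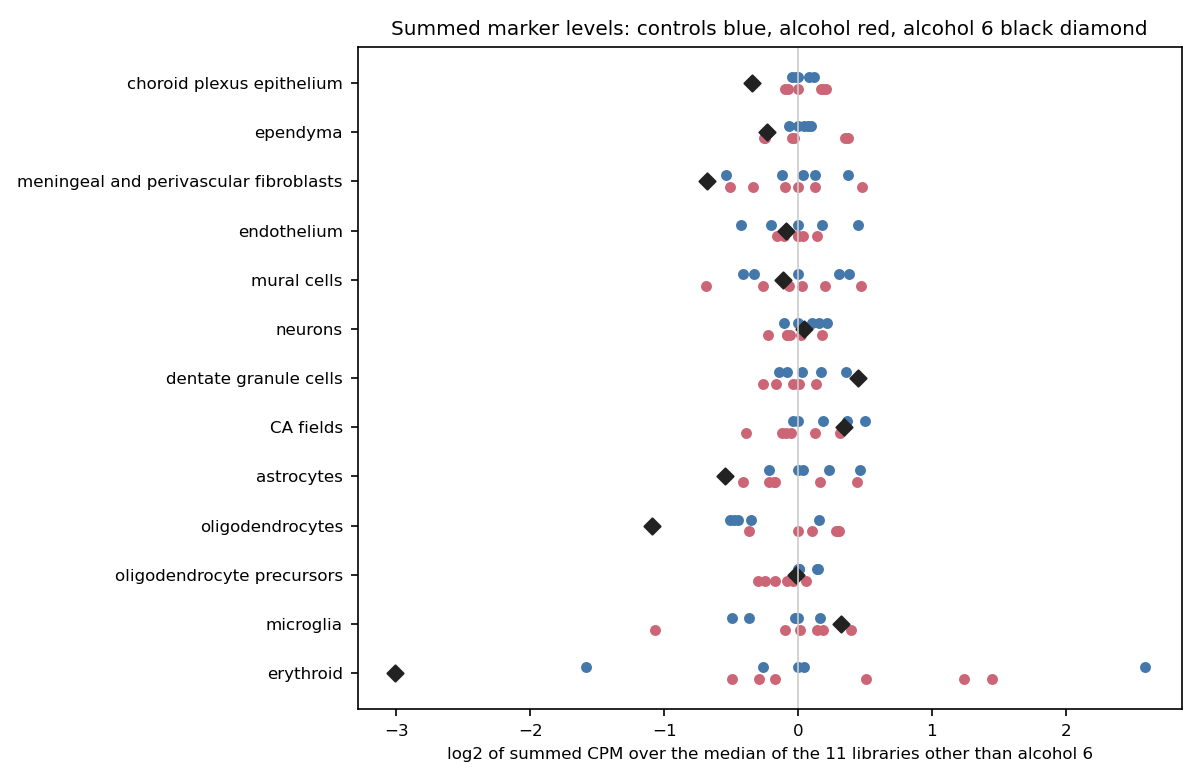
Summed CPM of each cell type marker list in each library, as log2 of the ratio to the median of the 11 other libraries, with alcohol 6 in black. Alcohol 6 lies lowest for the erythroid, oligodendrocyte, choroid plexus, astrocyte and fibroblast lists and highest for dentate granule cells. Sums can rest on single genes. Of the dentate markers only C1QL2 is itself above all other libraries there, and of the astrocyte markers only GFAP is below them.

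Some other marker lists also had low sums in alcohol 6. The 3 oligodendrocyte markers MBP, MOG and MOBP were all lowest there, with a summed level of 5523 CPM against 9133 to 14536 CPM in the other alcohol libraries and 8296 to 13165 CPM in controls. None of the 3 is in the set. TF, the iron carrier transferrin, made by oligodendrocytes and choroid plexus, was at 184 CPM in alcohol 6, at 399 to 683 CPM in controls and at 419 to 837 CPM in the other alcohol libraries. ENPP6, an enzyme of newly formed oligodendrocytes, was at 7.56 CPM, or 35.3% of its median in the others. The 7 ependymal markers matched, which mark the ciliated lining of the ventricles, summed to 19.8 CPM in alcohol 6 against 19.6 to 30.2 CPM elsewhere, and none is in the set. The astrocyte list was at 299.9 CPM in alcohol 6 against 329 to 604 CPM elsewhere, and the list of meningeal and perivascular fibroblasts at 67.6 against 74.7 to 151 CPM. Only some genes of these lists were lowest there. It was 1 of the 4 astrocyte markers, GFAP, at 188 CPM against at least 240 CPM elsewhere, and 3 of the 7 fibroblast markers. The erythroid list was at 0.424 CPM against 1.14 to 20.6 CPM. Its HBA, an alpha globin, made up most of that sum at 0.389 CPM in alcohol 6. HBA is in the set and thus low there by the rule. The part of these cell types in the low values was not tested.

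Of the pathway lists, ion and water transport had 1 gene in the set of 8 matched (SLC13A4), secreted growth factors and binding proteins 1 of 4 (ENPP2), tight junctions and epithelial keratins 1 of 6 (CLDN2), folate and vitamin C transport 1 of 5 (FOLR1), and thyroid hormone and retinol transport 0 of 5. None of these lists had a gene called between alcohol and control.

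A second pattern over the 11 libraries followed SLC17A6. SLC17A6 was at 20.4 CPM in alcohol 6. In controls 1 to 5 it was 76.7, 158, 180, 92.6 and 77.2 CPM, and in alcohol 1 to 5 and 7 it was 204, 168, 68.6, 139, 168 and 74.5 CPM. The 6 highest libraries, alcohol 1, 2, 4 and 5 and controls 2 and 3, lay at 139 to 204 CPM and the other 5 at 68.6 to 92.6 CPM, so that both groups were split. PVALB was at 5.02 CPM in alcohol 6, at 26.7, 62.8, 76.0, 47.2 and 35.3 CPM in controls and at 91.6, 86.0, 34.6, 63.6, 78.1 and 36.1 CPM in the other alcohol libraries. TCF7L2, a transcription factor of Wnt signalling, was at 11.1 CPM in alcohol 6, at 23.7 to 84.3 CPM in controls and at 34.0 to 98.0 CPM in the other alcohol libraries. For both genes the same 6 libraries were highest as for SLC17A6. This held for 8 genes of the set, SLC17A6 included, against 0.351% of the genes kept, whereas the 3 highest libraries were alcohol 2, 4 and 7 for 24 genes, the leading gene included, against 1.98%.

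In the edgeR fit of a slope on SLC17A6, 11 of the 60 genes of the set passed, all positive, against 0.306% of all genes with a positive slope and 0.0139% with a negative one. SLC17A6 was chosen after its values over these libraries were seen. The count and the p-values thus follow in part from that choice and are given as a description. PVALB had a slope of 0.94 (SE 0.07, adjusted p = 2.69e-05), TCF7L2 of 1.01 (SE 0.09, adjusted p = 0.000161) and ZIC4, a zinc finger transcription factor, of 0.92 (SE 0.09, adjusted p = 0.000211). LCP1, an actin-bundling protein, had a slope of 1.07 (SE 0.12, adjusted p = 0.00101). CHRNA2, a nicotinic receptor subunit, SHOX2, SLITRK6 and 4 genes without a symbol also passed. No gene of the set passed for both slopes. The number that passed fell to 5 to 10 when each library was left out in turn. The counts over all genes in those runs are not given here, so a change in the set alone cannot be told from a wider one. The correlation between the leading gene and SLC17A6 was -0.28 with group means removed.

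Between alcohol and control, 0 of the 61 genes passed an adjusted p of 0.05 in edgeR over the 11 libraries, against 2.91% of 14379 genes tested, with 1.23% called higher with alcohol. At an unadjusted p under 0.05, 18 genes of the set were higher with alcohol and none lower, against 9.91% of all genes higher and 11.3% lower. That count was 9 with library totals in place of TMM scaling, and 9 to 28 when each library was left out (9 without alcohol 2 or alcohol 4, 28 without alcohol 3). It was 0 with alcohol 6 included, where the leading gene had a log2 ratio of 0.62 (edgeR adjusted p = 0.725). The rule chose the genes on their values in alcohol 6, so the run with that library cannot test them and is a description. DESeq2 called 4 genes, SFRP1, SLC22A8, PRLR and SLC39A12, and limma-voom called 0, with 8 at an unadjusted p under 0.05. Over all 14379 genes, DESeq2 called 1308, and limma-voom called 460, with 3083 at an unadjusted p under 0.05. Over all genes in either direction, edgeR had 2654 at that p with alcohol 6 included and 3376 with library totals. Leaving out each library gave 2304 to 3563. The log2 fold change was above 0 for 54 genes and below 0 for 7, with a median of 0.37 against 0.01 over all genes and a range of -0.39 to 0.93. No gene had alcohol and control libraries that did not overlap, against 2.98% of all genes.

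**Figure D5:**
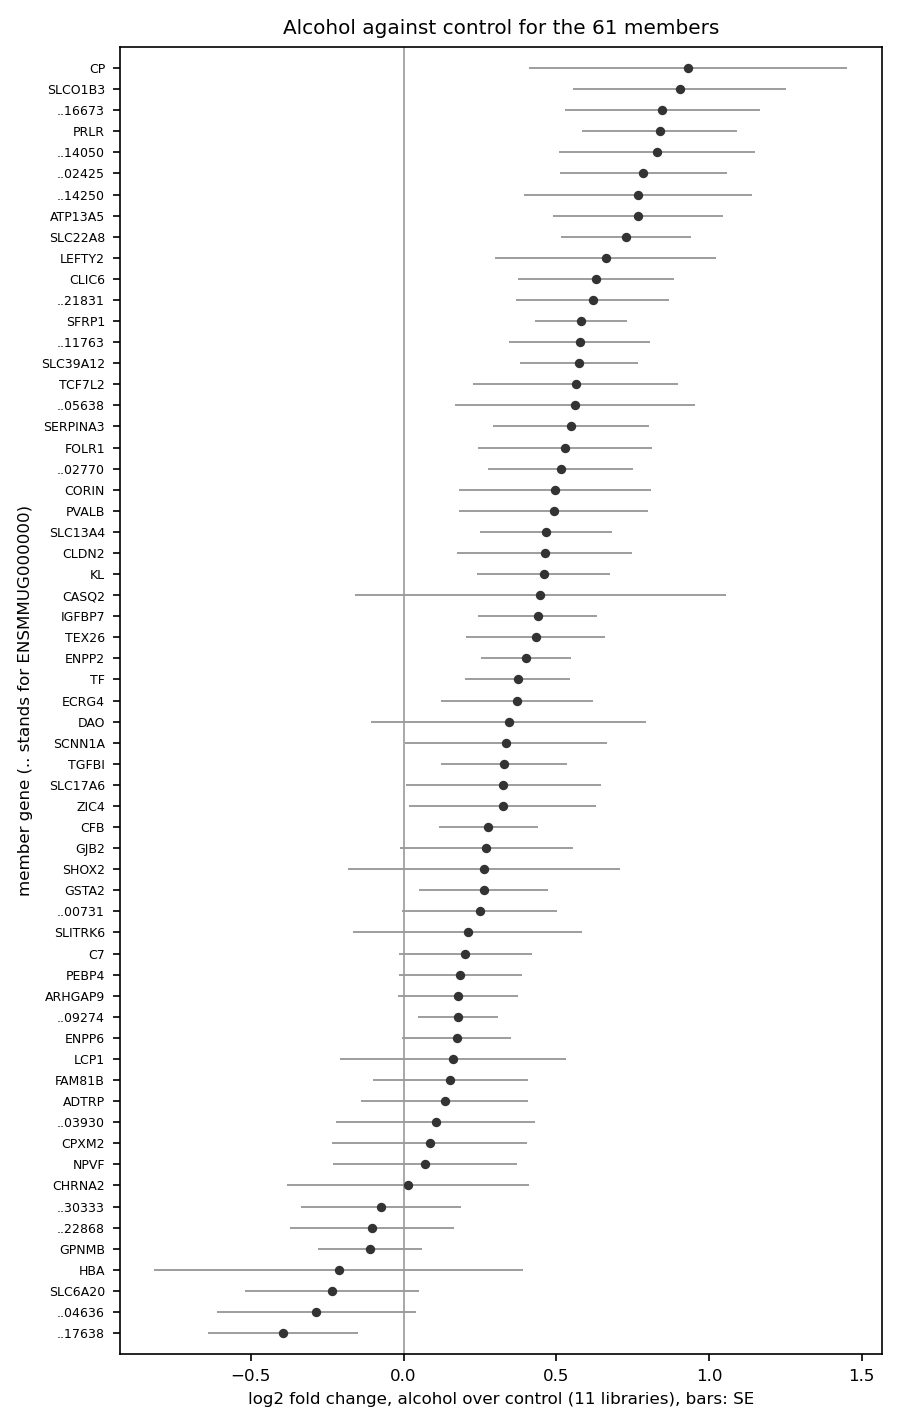
Log2 fold change between alcohol (n = 6) and control (n = 5) for each of the 61 genes, with bars of 1 SE from the edgeR fit that leaves out alcohol 6. Most points lie above 0, and no gene passed an adjusted p of 0.05.

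The mean of the leading gene was 1584 ± 262 CPM over the 5 controls and 2658 ± 1510 CPM over the 6 alcohol libraries (± SD). The log2 ratio by edgeR was 0.85 with an SE of 0.32 (adjusted p = 0.140), and the 3 high alcohol libraries stood apart while the other 3 lay within the control range. SFRP1, a secreted inhibitor of Wnt signalling, had the lowest adjusted p. It was at 49.5 to 62.2 CPM in controls with a median of 54.4, and at 53.8 to 103 CPM with alcohol with a median of 74.7. Alcohol 1 and 3 fell inside the control range, and the log2 ratio by edgeR was 0.58 with an SE of 0.15 (adjusted p = 0.0518). SLC22A8, an organic anion transporter, was at 2.57, 2.34, 3.93, 3.95 and 3.21 CPM in controls and at 4.06, 6.33, 2.97, 6.04, 4.28 and 5.99 CPM with alcohol. Only alcohol 3 lay inside the control range, and the log2 ratio by edgeR was 0.73 with an SE of 0.21 (adjusted p = 0.0715). The SFRP1 adjusted p fell to 0.0447 with no filter on low counts, and SFRP1 and SLC22A8 passed without control 3. Without alcohol 3 these and ENPP2 and ENSMMUG00000002425 passed. Calls over all genes also rose, from 418 of 14379 to 963 of 14564 without control 3 and 970 of 14319 without alcohol 3.

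ENPP2 ran from 270 to 308 CPM in controls and from 261 to 474 CPM with alcohol, with 114 CPM in alcohol 6, and its log2 ratio by edgeR was 0.40 with an SE of 0.15 (adjusted p = 0.134). IGFBP7 ran from 93.5 to 144 CPM in controls and from 93.2 to 203 CPM with alcohol with a log2 ratio of 0.44 (SE 0.19, adjusted p = 0.208). In both, alcohol 2, 4 and 7 were the highest and the groups overlapped. SLC39A12 ran from 56.9 to 78.3 CPM in controls and from 52.7 to 127 CPM with alcohol, and the log2 ratio by edgeR was 0.57 with an SE of 0.19 (adjusted p = 0.106). PRLR ran from 3.97 to 6.97 CPM in controls and from 5.16 to 14.8 CPM with alcohol, and the log2 ratio by edgeR was 0.84 with an SE of 0.25 (adjusted p = 0.0771). CP, the copper-carrying ferroxidase ceruloplasmin, had the highest ratio, 0.93 in log2 with an SE of 0.52 (adjusted p = 0.323). Control 4 was at 1.48 CPM, against 9.69 to 21.0 CPM in the other controls. CP was named after its values were seen, as were SCNN1A, SHOX2, SLCO1B3, ENPP6, ZIC4, LCP1, CHRNA2, ENSMMUG00000002425 and ENSMMUG00000011763.

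The genes varied more between libraries of the same group than most genes. Their median SD within groups on the log2(CPM + 0.1) scale was 0.52 over the 11 libraries, against 0.21 for all genes kept, and all 61 were above the latter. The comparison was not matched for level: the median of mean CPM was 7.53 in the set and 15.2 over all genes kept. The lowest of the other 11 libraries was a control for 37 genes and an alcohol library for 24. It was control 1 for 15, control 2 for 11 and alcohol 1 for 10, and never alcohol 2 or 4.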

How the data were processed

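Total RNA of hippocampal tissue from adult male rhesus macaques was sequenced after preparation with a stranded total RNA kit, per the labels' protocols. The deposited table holds whole-number counts per Ensembl gene for 12 samples. STAR 2.6.1a and Salmon 0.11.2 are named in the submitters' processing notes with no role, so the deposited counts may be rounded estimates. The genome build, annotation, strand setting and filters are not given in the sources used here, and genes that overlap or have near-identical copies, such as HBA, cannot be resolved. Each column was matched to its sample by library name. A table of gene names paired 15556 of 28633 identifiers with a symbol.

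CPM was each count over the library total, and levels are not compared between genes because no gene lengths were used. Alcohol against control and slopes were tested over 11 libraries, without alcohol 6, with edgeR 4.0.16 in R 4.3.3 (TMM scaling, filterByExpr, quasi-likelihood test, Benjamini-Hochberg adjustment over all genes tested, threshold 0.05). The slope covariate was log2 CPM with a prior count of 2. DESeq2 1.42.0 and limma 3.58.1 (voom) were alternatives, as were other scalings, filters, thresholds and leaving out each library. On simulated counts the group test called 81% of 200 genes changed 2-fold among 14330, with 8 false calls among 170, and the slope test called 88.5% of 200 genes with a slope of 1 among 14331, with 1 false call among 178. The changed genes were drawn at random from all genes tested. These rates therefore do not give the power for the set, whose genes varied more within groups.

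The genes and lists were chosen with earlier results of these data known. Named genes are the leading gene, the 10 with the highest mean CPM, the 5 with the largest gap, the 3 on each side of the margin, the 2 with the lowest p between groups, the 5 other genes most correlated with the leading gene, the 3 genes of the set least correlated with it, and genes of the set on a list. Others are said to have been named after their values were seen. Same-numbered alcohol and control samples did not deviate together (correlations of -0.24 to 0.06 over 5 pairs), so the numbers were not used as pairs. An oligodendrocyte marker was left out of its list and is not reported here. The endothelium, mural, CA field, precursor and microglia marker sums of alcohol 6 lay within the range of the other libraries.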

Additional observations from a re-analysis of the deposited data

Results flagged for a closer look

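Over all 61 genes and the 5 most correlated other genes, 132 sets of values (each gene in the 5 controls or the 6 alcohol libraries) were searched for a library far from the rest by Dixon's criterion at 95%. It marked 6, and chance marks about 1 set in 20. In control 2, SLCO1B3 was at 0.802 CPM against 1.71 to 2.05 CPM in the other controls, and NPVF, a neuropeptide precursor, was at 2.79 CPM against 6.25 to 8.43 CPM. In control 3, ECRG4, a secreted peptide precursor of choroid plexus, was at 21.9 CPM against 41.0 to 44.0 CPM. In control 4, ENSMMUG00000017638 was at 1.58 CPM against 2.51 to 2.89 CPM. In alcohol 2, ARHGAP9 was at 5.89 CPM against 3.11 to 3.88 CPM in the other alcohol libraries. In alcohol 7, GPNMB, a glycoprotein of phagocytes, was at 12.6 CPM against 5.72 to 7.62 CPM.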

How the results depend on the processing

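The number of genes in the set was 61, and it became 185 with a margin of 0.5, 21 with a margin of 2, 33 with a pseudocount of 1 and 28 with a mean of at least 10 CPM, and 61 to 71 when each other library was left out. Of the set, 0 genes passed between alcohol and control, against 1 with no filter on low counts, 4 with DESeq2, and 0 to 4 when each library was left out (4 without alcohol 3, 2 without control 3). At an edgeR adjusted p under 0.1 it was 3. The share over all genes at that threshold is not given here, so the 3 cannot be set against it. Over all genes the 418 calls became 0 without alcohol 1, alcohol 4, control 4 or control 5, and 1308 with DESeq2. They became 970 without alcohol 3, 963 without control 3 and 395 with no filter on low counts. The leading gene's log2 fold change stayed between 0.60 and 0.99 when each library was left out, with edgeR adjusted p from 0.0690 to 0.289, and was 0.65 with limma-voom.

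The 9 genes with a slope on the leading gene became 20 with DESeq2, 17 with no group term, 0 without alcohol 2, 4 and 7 (chosen after seeing the data), and 7 to 10 when each library was left out. Over all genes, the 12 positive calls became 42 with DESeq2, 27 with no group term, and 9 to 15 when each library was left out. Negative calls over all genes went from 0 to 16 with DESeq2, 5 with no group term and 2 without control 3. The slopes of the 9 genes stayed positive under every alternative run, at 0.39 or more. The median pair correlation of 0.28 became 0.020 in controls only and 0.074 without alcohol 2, 4 and 7, and 0.18 to 0.33 when each library was left out. The share of slope genes lowest in alcohol 6, which the rule fixes for 9 of the 10, was 83.3% of 12 genes, 64.3% of 42 with DESeq2, 75.0% to 86.7% when each library was left out, and 100% of 1 gene under the replicate block. With that block over the 10 samples numbered 1 to 5 in both groups, 0 genes of the set passed for the slope, against 10 without the block. Over all genes there was 1 positive call with the block and 15 without it. CLIC6 kept a slope of 0.78 and KL of 0.74. Between groups, 0 genes of the set passed with or without the block, against 0 and 449 of 14417 in all. The leading gene's log2 fold change was 0.49 with the block (edgeR adjusted p = 0.453) and 0.73 without it (edgeR adjusted p = 0.222). For these changes the cause was not tested. With few reads in alcohol 6, the level there is uncertain for genes with 10 counts or fewer.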

Other observations

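The pattern of SLC17A6 reached beyond the 61 genes. In the edgeR fit over the 11 libraries, 44 genes of the table passed for a positive slope on SLC17A6, and 33 of these lie outside the set. SLC17A6 was chosen after its values were seen, and it is itself low in alcohol 6 by the rule. Among the 33 were NTNG1, a netrin-related adhesion protein, NEFH, the heavy neurofilament subunit, VAV3 and OPN3, which were named after their values were seen. On CPM with TMM scaling, 29 of the 33 genes had their lowest level of all 12 libraries in alcohol 6, against 10.3% of the genes tested. The slope did not use that library. NEXN, counted among the 29, was not lowest there without TMM scaling, at 2.579 CPM against 2.574 CPM in its lowest other library. Only 2 genes, GPRIN1 and TNNT1, passed for a negative slope, and neither was lowest in alcohol 6.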
